A study of Mus musculus with 6 samples.

Results

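The erythroid module described here was a list of 33 genes by name, chosen by measured values of these same samples, since counts of red cell genes were known to stand higher in the IL-4Rα-/- than in the IL-4Rα+/+ libraries. It holds adult globins, heme and iron genes, proteins of the red cell membrane, erythroid nuclear factors and a few further genes of late red cell development. Of the 33 genes, 32 had a row among the 55421 genes measured, and *Ahsp*, which encodes the chaperone of free alpha globin, was not analysed here. Because the genotype difference chose the list, that difference is given below as a description, with no p-value, and calls by a fit over all genes are only counted beside their background.

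Splenic monocytes of 6 C57BL/6 mice were sequenced, 1 library per mouse, with 3 mice carrying IL-4Rα (IL-4Rα+/+) and 3 mice lacking it (IL-4Rα-/-). The labels name no treatment. The IL-4Rα-/- mice lacked the receptor in the whole body, so every cell type in the spleen carried the deletion, and the mice of the study were between 8 and 16 weeks old. Monocytes were taken from the spleen suspension by negative selection, in which other cells are bound and removed, and polyadenylated RNA was sequenced as single-end reads.

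Red cells arise from precursors that divide, fill with hemoglobin and lose their nucleus, and in the mouse this takes place in the red pulp of the spleen as well as in the bone marrow. GATA1, TAL1 and KLF1 switch on the globin, heme and membrane genes in these precursors, and erythropoietin acting on its receptor keeps the precursors alive. Reticulocytes, the young red cells without a nucleus, have stopped transcription but still hold globin mRNA. Adult hemoglobin joins alpha chains from *Hba-a1* and *Hba-a2* with beta chains, which C57BL/6 mice make from *Hbb-bs* and *Hbb-bt*.

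The globin genes come in near-identical pairs, and the stretches below are shown because the reads can be assigned only where the pairs differ. The alpha coding sequences were 426 bases long and the beta coding sequences 441 bases long in the GRCm38 annotation, and each pair differed at 1 base, an identity of 99.8%. The 40 coding bases around that base are printed with it in a capital.
Hba-a1: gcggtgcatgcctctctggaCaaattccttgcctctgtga
Hba-a2: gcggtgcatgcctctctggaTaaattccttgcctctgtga
Hbb-bs: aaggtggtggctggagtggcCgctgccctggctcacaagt
Hbb-bt: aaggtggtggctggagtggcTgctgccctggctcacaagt
Of all windows of 75 bases, the read length, 62.2% of the *Hba-a1* transcript also lay in *Hba-a2* and 81.0% of the *Hba-a2* transcript in *Hba-a1*. The shares were 64.3% for *Hbb-bs* and 56.6% for *Hbb-bt*, each against the other beta gene. Only reads with a single place in the genome were counted, so the globin counts came from the remaining windows, and the split between the genes of a pair is uncertain. On the plus strand of chromosome 11, *Hba-a1* lies from 32283511 to 32284465 and *Hba-a2* from 32296489 to 32297298. On the minus strand of chromosome 7, *Hbb-bt* lies from 103812524 to 103813996 and *Hbb-bs* from 103826534 to 103828096, 21.7 Mb from *Il4ra*. Members lay on 15 chromosomes.

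Promoters are shown for members that moved together over the libraries, since GATA and KLF factors bind short motifs there. The RefSeq table of GRCm38.p6 held 30 promoter windows for 25 members, each with 250 bases before and 50 after the start. The 120 bases before the RefSeq start are printed 5′ to 3′ on the gene's strand, with matches on either strand in capitals. The motifs searched were AGATAA for GATA factors, CCNCNCCC for the CACCC box of KLF factors and TATAAA for the TATA box. RefSeq and Gencode place some starts differently, so that the windows of *Hba-a1* and *Hbb-bs* lie inside the Gencode gene intervals given above. The first of these promoters belong to globins and *Alas2*, the others to genes that were low in 1 IL-4Rα+/+ library.
Hba-a1 (chr11:32283552-32283671, plus strand): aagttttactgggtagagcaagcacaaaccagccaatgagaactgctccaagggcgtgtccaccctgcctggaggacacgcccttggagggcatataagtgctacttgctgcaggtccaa
Hbb-bs (chr7:103827929-103828048, minus strand): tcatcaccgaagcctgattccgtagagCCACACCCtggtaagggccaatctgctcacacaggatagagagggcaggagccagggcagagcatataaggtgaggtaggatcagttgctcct
Hbb-bt (chr7:103813924-103814043, minus strand): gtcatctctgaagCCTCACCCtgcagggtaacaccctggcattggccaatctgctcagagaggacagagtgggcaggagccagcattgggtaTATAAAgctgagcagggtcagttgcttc
Alas2 (chrX:150547297-150547416, plus strand): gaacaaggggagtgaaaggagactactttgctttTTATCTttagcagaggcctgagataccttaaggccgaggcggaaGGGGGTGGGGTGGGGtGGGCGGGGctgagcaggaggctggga
Rhd (chr4:134864416-134864535, plus strand): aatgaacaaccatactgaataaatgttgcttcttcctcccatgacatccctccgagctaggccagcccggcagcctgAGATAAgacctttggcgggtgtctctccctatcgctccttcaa
Kel (chr6:41704326-41704445, minus strand): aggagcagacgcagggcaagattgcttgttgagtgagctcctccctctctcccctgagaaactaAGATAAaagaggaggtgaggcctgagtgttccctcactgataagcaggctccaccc
Gata1 (chrX:7967911-7968030, minus strand): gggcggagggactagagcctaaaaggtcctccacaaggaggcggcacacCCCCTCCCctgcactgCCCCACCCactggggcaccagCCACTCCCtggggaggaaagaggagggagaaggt
The 2 alpha globin windows shared a run of 117 of the 120 bases, so only that of *Hba-a1* is shown, while the longest run shared by the 2 beta windows was 14 bases. The GATA motif stood in 36.7% of the members' full windows and in 11.2% of the 32851 windows of all genes. The CACCC box stood in 60.0% against 49.5%, and the TATA box in 16.7% against 13.6%. The GATA motif was found in windows of 11 members, *Hbb-bs* (outside the bases printed), *Alas2*, *Epb42*, *Rhd*, *Kel*, *Icam4*, *Epor*, *Tal1*, *Hemgn*, *Trim10* and *Tmcc2*. These are matches of letters, and a window without a match says nothing about binding.

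Each library held 26807281 to 29033297 reads on genes, so that 1 count was worth 0.0338 to 0.0377 CPM, that is, counts scaled by TMM to libraries of one size, and 3 counts or fewer are read as not seen. The targeted gene was lower in the IL-4Rα-/- libraries, with *Il4ra* at 137, 128 and 177 CPM in IL-4Rα+/+ replicates 1, 2 and 3 and 27.9, 79.4 and 31.8 CPM in IL-4Rα-/- replicates 1, 2 and 3. Monocyte markers were seen in every library, with 12 of 12 measured and a summed level of 16955 to 23321 CPM in IL-4Rα+/+ and 19593 to 24357 CPM in IL-4Rα-/- libraries. *Lyz2* was the largest part of that sum, at 8840 to 17012 CPM over the 6 libraries. Single markers differed more between libraries, with *Ccr2* at 380 to 2007 CPM and *Spn* at 280 to 1185 CPM, and *Cd14* was at 42.6 to 117 CPM. Over 13849 genes with enough counts, edgeR's quasi-likelihood test called 0 genes at an adjusted p under 0.15, with 1120 genes at an unadjusted p under 0.05. DESeq2, with its own filter, called 80 of 14003 genes. These tests measure only the spread between these 6 mice. A pair of libraries stood apart in the erythroid genes. IL-4Rα+/+ replicate 2 was under 0.5 times both its fellow libraries for 17 of the 30 members with enough counts for the fit (56.7%), against 1.84% of all genes. IL-4Rα-/- replicate 3 was over 1.5 times both its fellow libraries for 23 members (76.7%), against 3.57% of all genes. Results are therefore given with and without this pair.

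**Figure D1:**
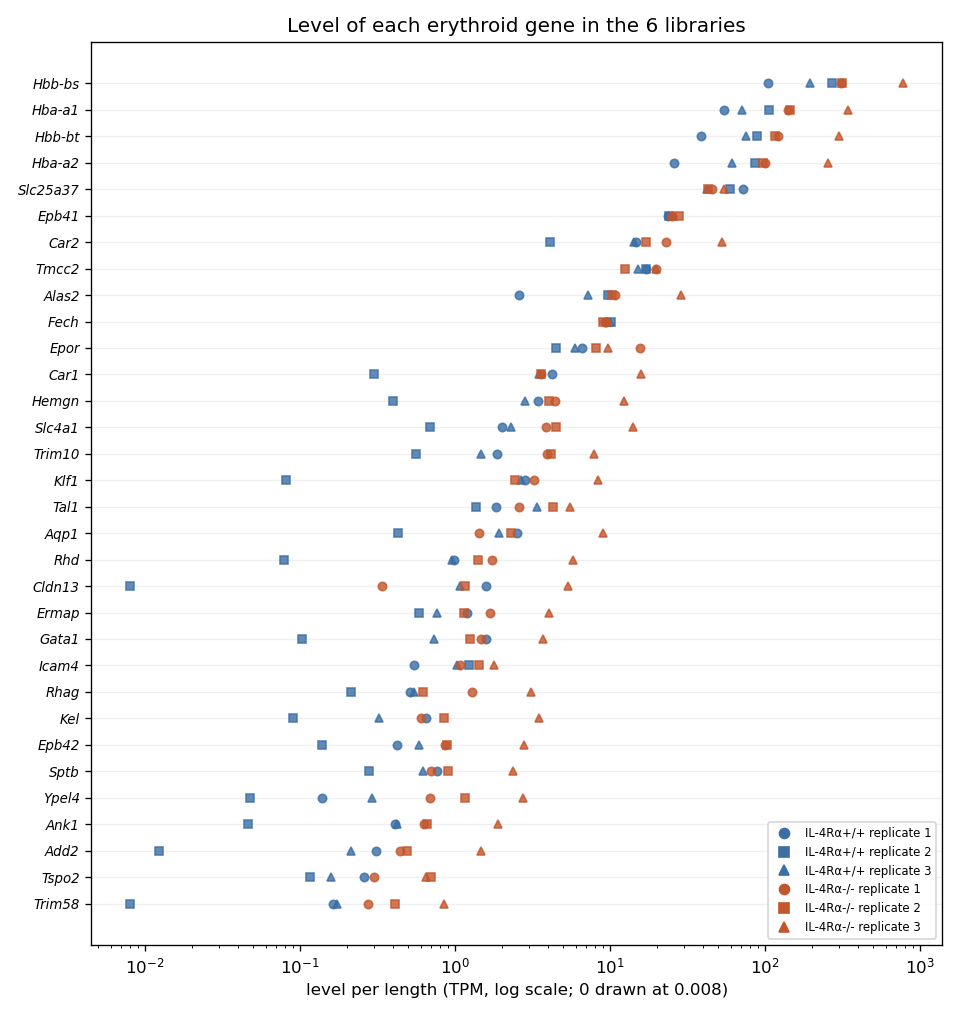
Level of each of the 32 measured members in TPM (reads per exon length, scaled to the same total in each library) on a log scale, ordered by the mean of the 6 libraries, with blue for IL-4Rα+/+, orange for IL-4Rα-/- and the symbol for the replicate. The blue squares of IL-4Rα+/+ replicate 2 lie far to the left for genes such as *Klf1*, *Add2* and *Rhd*, but not for the globins at the top, where *Hbb-bs* averaged 329 TPM.

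Most members stood higher in the IL-4Rα-/- libraries, and none stood wholly lower. Of the 30 members with enough counts, 28 had a positive fitted log2 fold change and 2 a negative one, with a median of 1.43, while the median of all 13849 genes was 0.01 and 51.5% of them were positive. In 17 members all 3 IL-4Rα-/- values lay above all 3 IL-4Rα+/+ values, and the background share of such genes was 7.63%. With *Tspo2* and *Trim58*, which had too few counts for the fit, it was 19 of 32. edgeR called 0 members, with a background of 0%, and DESeq2 called 5, namely *Hba-a1*, *Hbb-bt*, *Slc4a1*, *Trim10* and *Ypel4*, with a background of 0.279% of genes called higher. These counts restate what chose the list. A gene could also pass the filter through the IL-4Rα-/- libraries alone. In bulk RNA, more cells of a type cannot be told apart from more RNA per cell.

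The size of the difference rested in large part on 1 mouse. Without IL-4Rα-/- replicate 3 the median log2 fold change was 0.82, and without that library and IL-4Rα+/+ replicate 2 it was 0.65, an alternative chosen after the values were seen. The globins and *Alas2* had a log2 fold change of 1.08 to 1.22 without the pair. Among the 17 members that were low in IL-4Rα+/+ replicate 2, the values then ran from -0.75 to 2.13, and 3 of them were negative. These sets were told apart by their values in the IL-4Rα+/+ libraries, which can itself move the values without the pair.

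**Figure D2:**
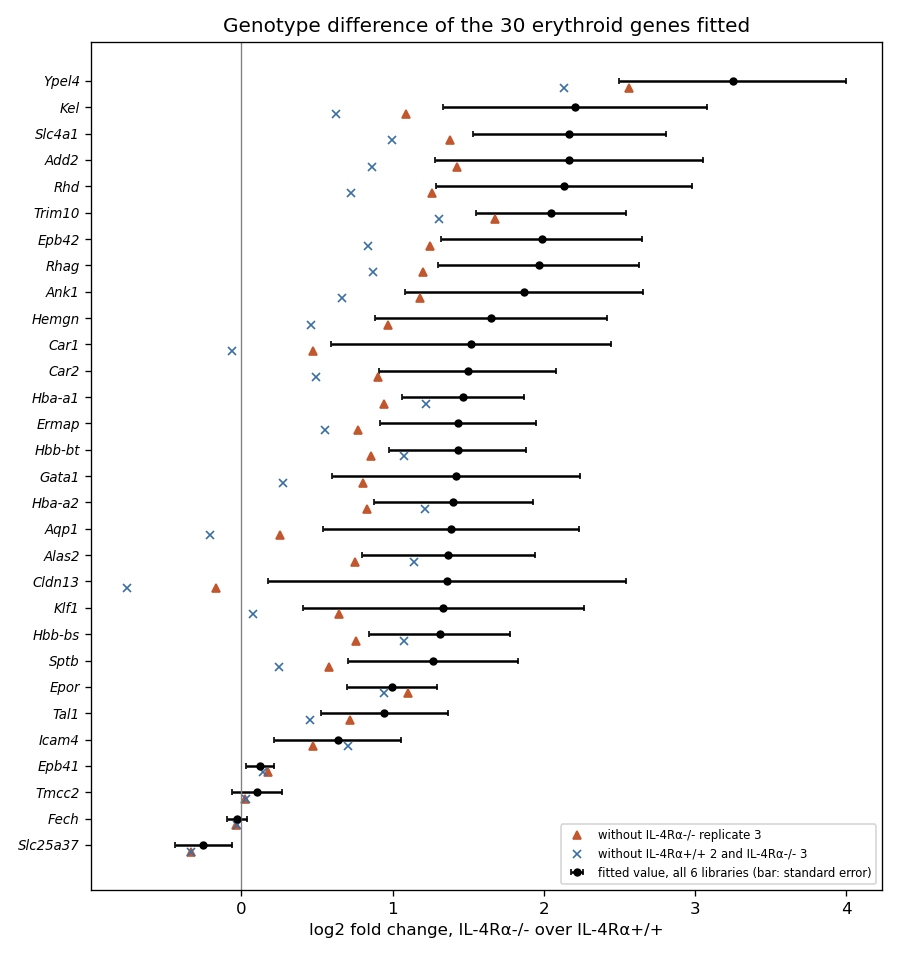
Fitted log2 fold change (IL-4Rα-/- over IL-4Rα+/+) of the 30 members with enough counts. Black points are all 6 libraries with the standard error as a bar, orange triangles leave out IL-4Rα-/- replicate 3, and blue crosses leave out that library and IL-4Rα+/+ replicate 2. *Ypel4* is highest at 3.25, *Slc25a37* lowest at -0.25, and for *Cldn13*, *Aqp1* and *Car1* the blue cross lies below 0.

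The adult globins were the most abundant members per length. *Hbb-bs* averaged 329 TPM over the 6 libraries, *Hba-a1* 144 TPM, *Hbb-bt* 124 TPM and *Hba-a2* 104 TPM. The least abundant were *Trim58* at 0.312 TPM, *Tspo2* at 0.363 TPM and *Add2* at 0.488 TPM. The globins are made in enormous amounts by red cells, but only their uniquely mapped reads were counted here. Their CPM and TPM are therefore too low by an amount that was not measured, and the TPM order of *Hba-a1* and *Hba-a2* is uncertain. The 4 genes together took 49.4, 120 and 89.8 CPM in the IL-4Rα+/+ and 149, 157 and 367 CPM in the IL-4Rα-/- libraries. The groups did not overlap, IL-4Rα+/+ replicate 1 was lowest, and IL-4Rα-/- replicates 1 and 2 lay not far above IL-4Rα+/+ replicate 2.

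*Hba-a1* had 12.8, 25.1 and 17.2 CPM in IL-4Rα+/+ replicates 1, 2 and 3 and 33.9, 36.9 and 81.5 CPM in IL-4Rα-/- replicates 1, 2 and 3, means of 18.4 ± 6.18 and 50.7 ± 26.7 (SD, n = 3). Its near twin *Hba-a2* had 5.02, 16.7 and 12.1 CPM against 19.9, 20.1 and 49.2 CPM. Both alpha genes had the same order of libraries, with IL-4Rα+/+ replicate 1 lowest and IL-4Rα-/- replicate 3 highest. *Hbb-bs*, the main beta globin here, had 23.6, 60.4 and 44.6 CPM against 70.1, 74.6 and 175 CPM. *Hbb-bt* had 7.93, 17.97 and 15.8 CPM against 25.3, 25.3 and 61.9 CPM. The fitted log2 fold changes were close to each other, 1.47 (SE 0.40) for *Hba-a1*, 1.40 (SE 0.53) for *Hba-a2*, 1.31 (SE 0.47) for *Hbb-bs* and 1.43 (SE 0.45) for *Hbb-bt*.

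The balance of the chains varied little. Alpha over beta CPM was 0.567, 0.532 and 0.486 in IL-4Rα+/+ and 0.564, 0.571 and 0.553 in IL-4Rα-/- libraries, which overlapped. *Hbb-bs* over *Hbb-bt* ran from 2.78 to 3.36 over all 6 libraries. *Hba-a1* over *Hba-a2* was 2.56 in IL-4Rα+/+ replicate 1, the library with the fewest globin reads, and 1.42 to 1.83 in the other libraries. These ratios rest on the windows that tell the genes of a pair apart. Embryonic and theta globins were at or near the floor, since 0 of the 7 in the files passed the filter and their summed level was at most 0.169 CPM. The theta globin *Hbq1b*, with 4 counts in IL-4Rα-/- replicate 3, was the only one over 3 counts in any library.

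The heme and iron genes did not move together. *Alas2*, the erythroid enzyme that starts heme synthesis, had 1.83, 6.76 and 5.13 CPM in IL-4Rα+/+ and 7.71, 7.7 and 20.01 CPM in IL-4Rα-/- libraries. It had the order of the globins among the IL-4Rα+/+ libraries, with replicate 1 lowest, and the groups did not overlap. Its fitted log2 fold change was 1.37 (SE 0.57), and it overlaps *Apex2* on the opposite strand, which held 1584 counts against its own 1403. *Fech*, which inserts iron into the ring in every cell, had 37.7, 40.5 and 41.2 CPM against 38.9, 38.8 and 39.3 CPM, a log2 fold change of -0.03 (SE 0.07). *Slc25a37*, the mitochondrial iron importer mitoferrin-1, had 127, 104 and 75.8 CPM against 81.8, 80.4 and 95.7 CPM and was highest in IL-4Rα+/+ replicate 1, with a log2 fold change of -0.25 (SE 0.19). Neither of these separated the genotypes. *Tspo2*, an erythroid protein of the translocator family, had 7, 3 and 4 counts in the IL-4Rα+/+ and 8, 20 and 18 counts in the IL-4Rα-/- libraries, too few for the fit.

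Of the membrane skeleton genes, 4 of 6 were higher without overlap, beside 7.63% of all genes, and the genotype difference had chosen the list. *Slc4a1* encodes band 3, which carries chloride and bicarbonate and anchors the skeleton, and had 2.88, 0.976 and 3.36 CPM in IL-4Rα+/+ and 5.64, 6.86 and 19.97 CPM in IL-4Rα-/- libraries. The groups did not overlap and the log2 fold change was 2.17 (SE 0.64), but the order within IL-4Rα+/+ was not that of the globins, since replicate 2 was lowest. *Epb42*, protein 4.2, which binds band 3, had 0.667, 0.217 and 0.943 CPM against 1.39, 1.5 and 4.36 CPM, with a log2 fold change of 1.99 (SE 0.66). *Ank1*, the ankyrin that ties band 3 to spectrin, had 1.61, 0.181 and 1.7 CPM against 2.53, 2.76 and 7.5 CPM. *Add2*, beta adducin, which caps actin, had 0.913, 0.0361 and 0.641 CPM against 1.32, 1.54 and 4.33 CPM and was at 1 count in IL-4Rα+/+ replicate 2. Both lay without overlap above the IL-4Rα+/+ values, with log2 fold changes of 1.87 (SE 0.79) for *Ank1* and 2.17 (SE 0.88) for *Add2*. *Sptb*, beta spectrin, had 2.74, 0.976 and 2.23 CPM against 2.53, 3.39 and 8.38 CPM, and IL-4Rα-/- replicate 1 lay below IL-4Rα+/+ replicate 1. It overlaps *Plekhg3* on the opposite strand, which held 25382 counts against 580 for *Sptb*. *Epb41*, protein 4.1, which many cell types make, had 111, 111 and 121 CPM against 120, 138 and 116 CPM, nearly level, with a log2 fold change of 0.12 (SE 0.09).

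The surface proteins were low, at a mean of at most 2.93 TPM. *Rhd*, the Rh blood group protein, had 0.456, 0.0361 and 0.453 CPM in IL-4Rα+/+ and 0.82, 0.70 and 2.67 CPM in IL-4Rα-/- libraries. Its partner *Rhag*, needed for the Rh complex at the surface, had 0.351, 0.145 and 0.377 CPM against 0.892, 0.455 and 2.1 CPM. *Ermap*, the protein of the Scianna blood group, had 1.86, 0.904 and 1.21 CPM against 2.64, 1.89 and 6.22 CPM. These were the surface genes without overlap, the last by a margin of 1.89 against 1.86 CPM. *Kel*, the Kell blood group peptidase, had 0.527, 0.0723 and 0.264 CPM against 0.499, 0.735 and 2.8 CPM. *Aqp1*, the water channel, had 1.93, 0.325 and 1.51 CPM against 1.11, 1.89 and 6.86 CPM. *Cldn13*, a claudin of mouse erythroid cells, had 0.491, 0 and 0.339 CPM against 0.107, 0.385 and 1.66 CPM. In these 3 genes the genotypes overlapped, and IL-4Rα-/- replicate 3 was far above every other library. *Cldn13* had 0 counts in IL-4Rα+/+ replicate 2, which allows a level of up to 0.108 CPM, and its log2 fold change of 1.36 (SE 1.18) turned to -0.17 without IL-4Rα-/- replicate 3. *Rhd* and *Kel*, at 1 and 2 counts in IL-4Rα+/+ replicate 2, are also read as not seen there. *Icam4*, an adhesion molecule of the red cell, had 5, 11 and 9 counts against 10, 14 and 17 counts.

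The nuclear factors showed the same division between libraries. *Klf1*, the factor of adult beta globin transcription, had 36, 1 and 32 counts in the IL-4Rα+/+ and 41, 33 and 110 counts in the IL-4Rα-/- libraries, which is 1.26, 0.0361 and 1.21 CPM against 1.46, 1.15 and 3.72 CPM. Thus IL-4Rα-/- replicates 1 and 2 lay beside IL-4Rα+/+ replicates 1 and 3, and the log2 fold change of 1.33 (SE 0.93) fell to 0.65 without IL-4Rα-/- replicate 3 and to 0.07 without that library and IL-4Rα+/+ replicate 2. *Gata1*, the leading erythroid GATA factor, which mast cells, basophils and megakaryocytes also use, had 1.12, 0.0723 and 0.528 CPM against 1.07, 0.945 and 2.64 CPM. Its value in IL-4Rα+/+ replicate 2 was 2 counts, read as not seen. *Hemgn*, a nuclear protein of erythroid cells, had 2.53, 0.289 and 2.11 CPM against 3.28, 3.15 and 9.06 CPM without overlap. *Tal1*, a partner of GATA1, had 2.35, 1.74 and 4.38 CPM against 3.39, 5.88 and 7.03 CPM, with overlap. *Epor*, the erythropoietin receptor, was different, as IL-4Rα-/- replicate 1 was highest. It had 3.86, 2.57 and 3.51 CPM against 9.24, 5.005 and 5.61 CPM, means of 3.31 ± 0.669 and 6.62 ± 2.29 (SD, n = 3), and its log2 fold change of 1.00 (SE 0.30) was 1.11 without IL-4Rα-/- replicate 3.

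The 2 carbonic anhydrases, which turn carbon dioxide and water into bicarbonate, moved alike. *Car2* had 10.5, 2.86 and 10.3 CPM in IL-4Rα+/+ and 16.6, 12.8 and 37.3 CPM in IL-4Rα-/- libraries without overlap. *Car1*, the more restricted of them, had 1.54, 0.108 and 1.28 CPM against 1.32, 1.4 and 5.71 CPM and overlapped. Its value in IL-4Rα+/+ replicate 2 was 3 counts, read as not seen. Of the 4 further genes, all but *Tmcc2* were low. *Trim10*, which is needed for terminal red cell development, had 1.23, 0.361 and 0.981 CPM against 2.6, 2.9 and 5.17 CPM, with a log2 fold change of 2.05 (SE 0.50). *Ypel4*, a small zinc-binding protein made in red cell precursors, had 3, 1 and 6 counts against 15, 27 and 62 counts, the highest fold change of the list at 3.25 (SE 0.75) but with 2 IL-4Rα+/+ libraries at 3 counts or fewer. Both separated the genotypes, and of the 17 members low in IL-4Rα+/+ replicate 2 they kept the largest differences without the pair of libraries, 1.31 for *Trim10* and 2.13 for *Ypel4*. *Trim58*, a ubiquitin ligase of late erythroblasts, had 3, 0 and 3 counts against 5, 8 and 16 counts. *Tmcc2* had 28.3, 28.02 and 25.7 CPM against 33.5, 22.1 and 32.6 CPM and did not separate the genotypes.

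**Figure D3:**
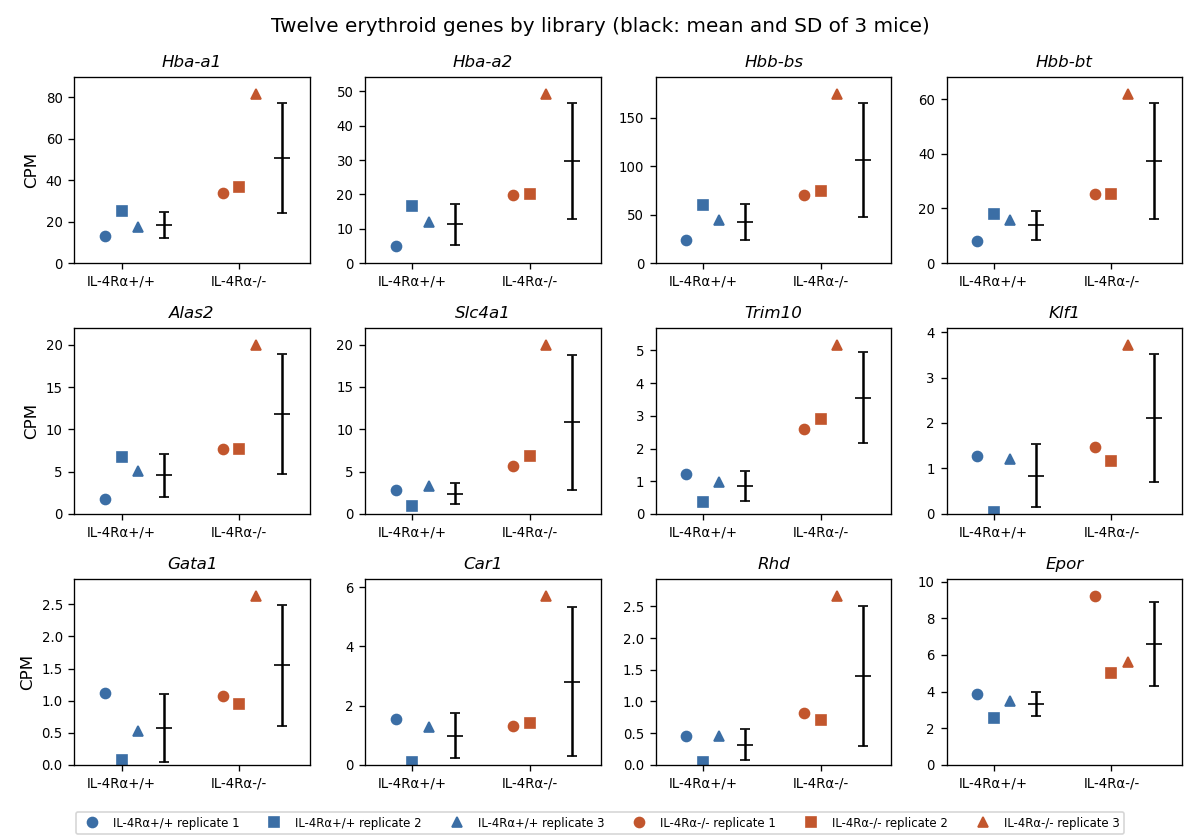
CPM of 12 members in each library, on a linear axis for each gene, with blue for IL-4Rα+/+, orange for IL-4Rα-/-, the symbol for the replicate and the mean with SD (n = 3) in black. *Klf1*, *Gata1*, *Car1* and *Rhd* are near 0 in IL-4Rα+/+ replicate 2, where the globins and *Alas2* are highest among the IL-4Rα+/+ libraries.

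Most members with enough counts could therefore be put into sets by their order among the IL-4Rα+/+ libraries, which is a split made after the values were seen. In the first set were the 4 globins and *Alas2*, in which IL-4Rα+/+ replicate 2 was 1.51 to 1.95 times the mean of replicates 1 and 3. In the second were 17 members at 0 to 0.397 times that mean, *Slc4a1*, *Epb42*, *Sptb*, *Ank1*, *Add2*, *Rhd*, *Rhag*, *Kel*, *Cldn13*, *Aqp1*, *Gata1*, *Klf1*, *Hemgn*, *Car1*, *Car2*, *Trim10* and *Ypel4*. Of these, *Add2*, *Rhd*, *Kel*, *Cldn13*, *Gata1*, *Klf1*, *Car1* and *Ypel4* had 3 counts or fewer in IL-4Rα+/+ replicate 2, read as not seen. Their ratios rest on values at the floor and are uncertain. *Fech* and *Epb41* stayed within 1.5-fold over all 6 libraries, as did 51.8% of all genes. *Slc25a37*, *Ermap*, *Epor*, *Tal1*, *Tmcc2* and *Icam4* were put in no set. *Icam4*, on few counts, was at 1.54 times the mean of IL-4Rα+/+ replicates 1 and 3 in replicate 2, within the range of the first set. The order with replicate 1 lowest and replicate 2 highest among the IL-4Rα+/+ libraries, seen in the globins, *Alas2* and *Icam4*, held for 13.0% of all genes.

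The summed level of the 17 genes was 30.8, 6.72 and 28.5 CPM in the IL-4Rα+/+ and 43.7, 43.6 and 126 CPM in the IL-4Rα-/- libraries, without overlap. Globin over this sum was 1.6, 17.9 and 3.15 in IL-4Rα+/+ and 3.41, 3.6 and 2.91 in IL-4Rα-/- libraries. The 17 genes were picked for being low in IL-4Rα+/+ replicate 2, so the high ratio there restates that choice. The ratios of the 3 IL-4Rα-/- libraries lay close together although their levels differed. Against IL-4Rα+/+ replicates 1 and 3, the mean of IL-4Rα-/- replicates 1 and 2 was 2.12 to 2.35 times as high for the globins and *Alas2*. For the 17 genes it was 0.592 to 4.46 times as high, with a median of 1.56. Both sets were split by where IL-4Rα+/+ replicates 1 and 3 lay against replicate 2. The split itself can therefore raise the first ratios and lower the second.

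**Figure D4:**
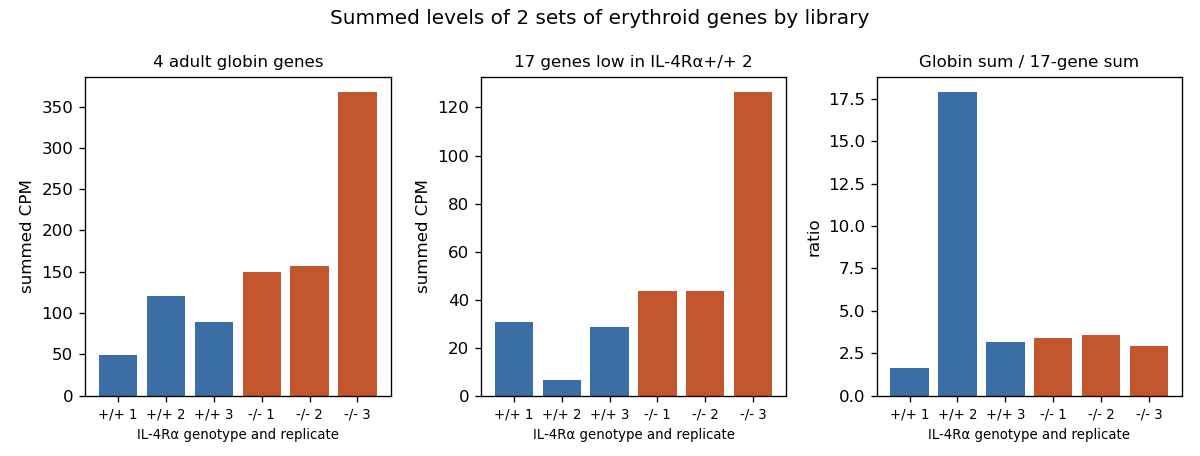
Summed CPM of the 4 adult globin genes, summed CPM of the 17 members low in IL-4Rα+/+ replicate 2, and the ratio of these sums, as 1 bar per library from 0. The ratio is 17.9 in IL-4Rα+/+ replicate 2 and 1.6 to 3.6 in the other libraries.

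Some genes of other cell types also set these libraries apart. The 9 markers of dividing cells summed to 294, 167 and 285 CPM in IL-4Rα+/+ and 362, 336 and 370 CPM in IL-4Rα-/- libraries, with 7 of the 9 higher without overlap, beside 7.63% of all genes, and IL-4Rα+/+ replicate 2 was again lowest. In that library the early granulocyte genes *Mpo* and *Elane* were also lowest, at 1.34 and 1.08 CPM against at least 9.02 and 5.70 CPM elsewhere. In IL-4Rα-/- replicate 3, where most members were highest, they were at 10.9 and 7.27 CPM, the lowest of the IL-4Rα-/- libraries, and *Retnlg* of the same neutrophil list was highest of all 6 in IL-4Rα+/+ replicate 2, at 4.01 CPM. The B cell gene *Ms4a1* was instead highest in the pair of libraries, at 9.04 CPM in IL-4Rα+/+ replicate 2 and 21.3 CPM in IL-4Rα-/- replicate 3, and was at most 1.77 CPM in the other libraries. *Jchain* and *Sdc1* of the same list did not follow, with *Jchain* at 120 CPM in IL-4Rα-/- replicate 3 against 188 and 171 CPM in replicates 1 and 2. The T cell gene *Cd3e* was also highest in the pair, at 6.51 and 6.35 CPM against at most 2.14 CPM elsewhere, but *Cd4* was not. The part of these genes in the erythroid values was not tested.

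Besides dividing cells, the marker sums that did not overlap between the genotypes were those of basophils, mast cells and eosinophils, summed at 85.6 to 99.4 CPM in IL-4Rα+/+ and 145 to 227 CPM in IL-4Rα-/- libraries with 8 of 12 tested higher without overlap beside the background of 7.63%, and of red pulp macrophages, summed at 2845 to 3326 against 3823 to 6056 CPM with 4 of 10. Red pulp macrophages take up old red cells and surround developing ones. The sum of their markers was highest in IL-4Rα-/- replicate 1, as was *Epor*, but not the globins. *Siglec1* of that list was instead lowest in that library, at 60.6 CPM against 61.9 to 113 CPM in the other libraries. Neutrophil markers ranged from 20.8 to 82.3 against 69.2 to 324 CPM, with 1 of 8 without overlap. B and plasma cell markers ranged from 125 to 195 against 191 to 243 CPM, T and NK cell markers from 43.3 to 108 against 39.3 to 94.4 CPM and dendritic cell markers from 168 to 246 against 161 to 204 CPM, with 0 of each without overlap. Pancreatic acinar genes ranged from 10.4 to 46.2 against 19.6 to 293 CPM, highest in IL-4Rα-/- replicate 2, with 1 of 8 higher without overlap. The megakaryocyte and platelet list ranged from 58.0 to 139 against 50.3 to 112 CPM, with 0 of 6 tested without overlap, *Gp1bb* at 0 in every library and *Gp1ba* and *Gp9* at no more than 0.113 CPM. The part of these cells in the erythroid values was not tested.

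Genes of the same pathways outside the list had a median near that of all genes. Of 84 tested in 4 lists, 53 had a positive and 31 a negative log2 fold change, with a median of 0.07 against 0.01, and 12 were higher without overlap against the background of 7.63%. None of the 84 was called by edgeR or DESeq2, and 8 were higher and 3 lower at an unadjusted p under 0.05 in edgeR, beside 3.72% and 4.37% of all genes. Another 6 were lower without overlap, beside 7.87% of all genes.

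The other genes of heme synthesis, most of which all cells need, had a median of 0.11 over 19 genes. Of these, 4 were higher without overlap, beside 7.63% of all genes. Among these, *Alad*, which carries out the step after the first one, had a log2 fold change of 0.52 (SE 0.21), *Uros* 0.18 (SE 0.09) and the mitochondrial carrier *Slc25a39* 0.22 (SE 0.08). Among the most abundant by CPM, *Tmem14c* and *Slc25a28* had log2 fold changes of 0.26 (SE 0.15) and -0.10 (SE 0.09). Of the 20 further membrane genes, 3 were higher without overlap, beside the same 7.63%. Among these, *Dmtn*, dematin, which bundles actin, had 0.983, 0.434 and 0.792 CPM in IL-4Rα+/+ and 1.39, 1.61 and 4.02 CPM in IL-4Rα-/- libraries. It was lowest in IL-4Rα+/+ replicate 2 and highest in IL-4Rα-/- replicate 3, with a log2 fold change of 1.66 (SE 0.53). *Cd47*, *Add3* and *Stom*, the most abundant, had -0.18 (SE 0.13), -0.23 (SE 0.14) and 0.15 (SE 0.14), and *Piezo1* was lower without overlap at -0.28 (SE 0.11).

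The other erythroid regulators had a median of -0.09 over 20 genes. Of these, 0 were higher and 4 lower without overlap, beside 7.63% and 7.87% of all genes. The 4 were *Foxo3* at -0.28 (SE 0.07), *Cbfa2t3* at -0.29 (SE 0.13), *Stat5a* at -0.18 (SE 0.07) and *Stat5b* at -0.15 (SE 0.07). Most of these factors serve other blood cells too, and the most abundant, *Cbfa2t3*, *Zbtb7a* and *Lyl1*, had 215 to 346 CPM, 221 to 274 CPM and 187 to 281 CPM over the libraries. The list of red cell maturation had a median of 0.13 over 25 genes, with 5 higher without overlap beside 7.63% of all genes. Among these, *Blvrb*, biliverdin reductase B, had a log2 fold change of 0.43 (SE 0.13), and *Ubac1*, *Isg20* and *Rfesd* had 0.20 (SE 0.10), 0.21 (SE 0.08) and 0.19 (SE 0.12). *Ulk1*, a kinase that starts autophagy, was lower at -0.22 (SE 0.10). The most abundant, *Gpx1*, *Mkrn1* and *Cat*, had -0.01 (SE 0.10), -0.02 (SE 0.08) and 0.12 (SE 0.14).

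Likeness to the module was measured over the 6 libraries as Pearson's r with the members' mean log2 CPM after the genotype means were subtracted, which leaves few independent points and is given as a description. Each member is part of that mean, so a member's r is higher by construction than that of a gene outside the list. *Slc4a1* had an r of 0.997 and *Epb42* of 0.989, and 18 of the 30 members were over 0.8, as were 1.97% of 12088 genes outside the list. The globins had an r of 0.140 to 0.322 and *Alas2* of 0.149. The 10 genes outside the list with the highest values were *Colec12*, *Exosc9*, *Bcl7c*, *Zfp560*, *Arl13b*, *Mns1*, *Rpia*, *Srsf3*, *Dnmt1* and *Hmgb3*, with an r of 0.980 to 0.998. Their sizes of change were mostly small, as in *Srsf3*, with 165, 157 and 168 CPM against 160, 162 and 175 CPM, while *Hmgb3* had 1.33, 0.723 and 1.47 CPM against 1.93, 1.96 and 3.14 CPM.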

How the data were processed

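Splenic monocytes from 6 mice were analysed, 3 IL-4Rα+/+ and 3 IL-4Rα-/-, grouped by the genotype in the sample titles. Reads of 75 bp were mapped by the authors to GRCm38 using STAR, at version 2.6.1a in the submitters' processing notes. The authors deposited the counts of uniquely mapped reads per gene without normalization. The strand column kept is not given in the sources used here, so genes that overlap another gene, 10 of the members, are uncertain. STAR's summary lines (unmapped, multimapping at 8.30% to 9.36% of reads, outside genes at 8.87% to 11.7%, ambiguous) were left out of library sizes and tests.

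Symbols, positions and exon lengths came from Gencode vM21, which held 55240 of the 55421 identifiers. Genes were kept by filterByExpr with a minimum count of 10, scaled by TMM and compared in edgeR 4.0.16 (R 4.3.3) by its quasi-likelihood test. Each standard error (SE) is the absolute log2 fold change divided by the square root of that test's F value. For the members it is a description only. Adjustment was that of Benjamini and Hochberg over all genes at the study's threshold of 0.15. DESeq2 1.42.0 was an alternative. Members entered this fit with all genes, but no p-value is given for them and their calls are only counted beside the background. TPM used the union of exons. Likeness used log2 CPM with a prior count of 2 and genes at a mean of 1 CPM or more. A promoter match was an exact match on either strand.

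The members and the lists were chosen with earlier results of these data known. Named were all members by role, *Il4ra*, per pathway list the 3 genes with the highest mean CPM and any gene called, the 10 genes most like the members, and the most and least abundant members per length. The pathway genes without overlap, and single marker genes, were named after their values were seen. Single values of some pathway and marker genes are not reported here. Alternatives changed the scaling, library size, filter, tool, replicate block and members, and left out each library in turn. The steps were tested on simulated data.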

Additional observations from a re-analysis of the deposited data

Results flagged for a closer look

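The share of reads mapped to several places, which no comparison used, was higher in every IL-4Rα-/- than in every IL-4Rα+/+ library. It was 8.30%, 8.32% and 8.86% in IL-4Rα+/+ replicates 1, 2 and 3 (mean 8.5 ± 0.316 SD, n = 3) and 9.19%, 9.36% and 9.03% in IL-4Rα-/- replicates 1, 2 and 3 (mean 9.19 ± 0.165 SD, n = 3). The two-sided exact permutation test gave p = 0.10, the smallest that 3 against 3 allows. The share was flagged because the groups separated fully, which fixes this p in advance, so it adds nothing to that separation. Reads from the shared windows of the globin pairs are among those left out of the counts, and how many of these reads they were was not tested. The uniquely counted globin reads were 1406 to 10867 per library, against 2991911 to 3441483 reads mapped to several places.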

How the results depend on the processing

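edgeR called 0 genes in every alternative run with it, including each library left out in turn and the replicate block, and DESeq2 called 80 genes. The members' median log2 fold change of 1.43 ran from 0.82 to 1.77 with a library left out and was 0.65 without IL-4Rα+/+ replicate 2 and IL-4Rα-/- replicate 3 together, chosen after seeing the data. It was 1.42 with the replicate block, while the 17 members and 12 pathway genes higher without overlap cannot change with that block. The replicate numbers did not pair the libraries, with correlations of 0.18, -0.27 and -0.30. Members higher without overlap ran from 17 to 22 with a library left out. The 12 pathway genes became 14 to 24, and 24 without IL-4Rα+/+ replicate 3 or IL-4Rα-/- replicate 2. With fewer libraries to separate, more genes of any kind can lie without overlap, and the share of all genes is not given for these settings. These ranges therefore have no background and do not show that the counts are stable. Of 444 values of single members, 13 moved by more than the spread between replicates, all without the pair of libraries, and 6 changed sign, *Fech* to 0.02 with total reads as library size, *Tmcc2* to -0.0036 without IL-4Rα-/- replicate 1, *Cldn13* to -0.17 without IL-4Rα-/- replicate 3, and *Car1* to -0.06, *Cldn13* to -0.75 and *Aqp1* to -0.21 without the pair. *Trim58*, *Tspo2*, *Icam4* and the IL-4Rα+/+ values of *Ypel4* rested on too few counts to resolve small differences. So did the values of *Add2*, *Rhd*, *Kel*, *Cldn13*, *Gata1*, *Klf1* and *Car1* in IL-4Rα+/+ replicate 2.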
